A study of Homo sapiens with 24 samples.

Results

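The genes described here are 5 human genes for replacement histones: H2AFZ, H2AFY, H3F3A, H3F3B and H1FX. They were chosen by name, and their peaks were chosen by place: a peak belonged to a gene when it overlapped the gene's hg19 window by at least 1 nt on the gene's strand. Of 269336 peaks in 7 eCLIP peak lists, 353 met this rule.

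The lists come from 293T cells, a derivative of the human embryonic kidney line HEK293, in which protein and RNA were cross-linked by 254 nm ultraviolet light (400 mJ/cm2). eCLIP sequences RNA fragments that were cross-linked to an immunoprecipitated protein, and sets them against a size-matched input from the same lysate. Of the 24 samples of the series, 7 immunoprecipitations had peak lists: 4 with an antibody against SLBP, 2 with an antibody against RBFOX2 and 1 with isotype control IgG, each with its own input. RNase I was used at 40 U for SLBP replicates 1 and 2, both RBFOX2 replicates and IgG, and at 5 U for SLBP replicates 3 and 4. The labels do not state whether the replicates of an antibody were separate cultures. Errors and p-values here therefore cover the spread from library to library, part or all of which may be technical.

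Most histone mRNA is made in S phase from clustered, intronless, replication-dependent genes, and ends in a conserved stem-loop instead of a poly(A) tail. SLBP, the stem-loop binding protein, binds that structure and is needed for the processing and translation of these mRNAs. Replacement histones are made throughout the cell cycle from solitary genes, and their mRNAs are polyadenylated like most other mRNAs. RBFOX2 is a splicing regulator that recognises GCAUG elements, many of them in introns and 3' untranslated regions. Whether the RNA measured here carried poly(A) tails was not measured.

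The windows cover H2AFZ at chr4:100869200-100871600 on the minus strand, H2AFY at chr5:134670000-134735700 on the minus strand and H3F3A at chr1:226250400-226259800 on the plus strand. H3F3B was taken at chr17:73772500-73775900 and H1FX at chr3:129033600-129035200, both on the minus strand. No hg19 annotation was used here, so exons, introns and untranslated regions are not assigned and places are given by distance from the 5' end of the window.

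The lists held 10122 to 23034 peaks for SLBP, 74902 and 97594 for RBFOX2 and 28361 for IgG. The replacement genes held 41, 36, 37 and 24 of them in SLBP replicates 1 to 4, 76 and 77 in the RBFOX2 replicates and 62 in IgG. Every value of a single peak is the authors' own: a log2 fold of immunoprecipitation over input and a −log10 p, which is 0 wherever the log2 fold is below 0. Read counts are not among these values, and the depth behind a fold is unknown. Between 67.5% and 85.5% of the replacement genes' peaks in each list carry a log2 fold shared to the last digit by at least 20 peaks of the same list.

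SLBP immunoprecipitation gave no enriched peak in any of the 5 genes. A peak is called enriched here when its −log10 p is at least 5 and its log2 fold is 3 or more, that is, 8-fold above input. None of the 138 SLBP peaks passed, where 1.52% of all SLBP peaks did (1.23%, 1.27%, 1.7% and 2.33% in replicates 1 to 4). Of those 1042 enriched peaks, 771 lay in HIST1, 113 in HIST2 and 51 in H2AFX, the replication-dependent histone windows described below. The share in the rest of the lists is therefore lower than 1.52%, and a count of 0 does not mark these genes out. A count of 0 among 138 allows a share of up to 2.17%, so the replacement genes cannot be set below the whole SLBP lists by this count. IgG likewise had 0 enriched peaks of 62, which allows up to 4.84%, beside 0.18% of all IgG peaks. These limits cover counting error only.

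The SLBP peaks of these genes were modest in both measures. A log2 fold of at least 3 was reached by 6 of 138 peaks, 3 of them in replicate 1, beside 7.19% of all SLBP peaks. The highest was 3.83 in H1FX in replicate 1, a 21 nt peak with −log10 p 4.65. Its fold lay above 98.2% of the peaks of that list, and it was the nearest of the 6 to the limit on p. It also had the highest −log10 p of the 138, just short of the limit, and no other SLBP replicate had a peak at that place.

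RBFOX2 immunoprecipitation gave no enriched peak in the 5 genes either. None of its 153 peaks passed, 76 in replicate 1 and 77 in replicate 2, where 7.95% and 7.66% of all peaks of these lists were enriched (7.79% together). A count of 0 among 153 allows a share of up to 1.96%, which is under the share of either list as a whole. Peaks of 1 gene, peaks that touch and peaks of the same place in both replicates are not independent of each other. That limit is therefore approximate and may be too low, and whether the 5 genes lie below the lists was not tested. A log2 fold of at least 3 was reached by 2 RBFOX2 peaks, both in H2AFY, beside 11.8% of all RBFOX2 peaks. A −log10 p of at least 5 was reached by 3 others, also in H2AFY.

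The genes are compared next by a mean log2 fold per library, in which each peak of the gene counts by its width. The places with peaks differ between libraries, so these means do not cover the same places. Between 4 SLBP and 2 RBFOX2 libraries the smallest p that an exact permutation test can give is 0.133, so no such comparison of a single gene can pass 0.05.

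H2AFZ encodes H2A.Z, an H2A variant found around transcription start sites. Its mean log2 fold was 0.59, 0.10, −0.19 and −0.33 in SLBP replicates 1 to 4, 0.29 and −0.24 in the RBFOX2 replicates and 0.11 in IgG. All 3 antibodies lay near input and their values overlapped. The SLBP mean was 0.04 ± 0.41 (SD, n = 4) and the RBFOX2 mean 0.02 ± 0.38 (SD, n = 2), with a two-sided exact permutation p of 1. The largest single fold in the gene was 2.57, in SLBP replicate 1, with −log10 p 1.56.

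H2AFY encodes macroH2A1, an H2A variant with a large non-histone domain, and has the longest window. Its mean log2 fold was 0.97, 1.30, 0.87 and 1.62 in SLBP replicates 1 to 4, 1.11 and 1.45 in the RBFOX2 replicates and 0.82 in IgG. The SLBP and RBFOX2 ranges overlapped, at 1.19 ± 0.34 (SD, n = 4) and 1.28 ± 0.25 (SD, n = 2), with a two-sided exact permutation p of 0.8. IgG was the lowest of the 7, and by a small step.

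H3F3A and H3F3B encode the same histone, H3.3, which can also be deposited outside S phase. H3F3A had mean log2 folds of 2.11, 1.39, 0.39 and 1.14 in SLBP replicates 1 to 4, 1.29 and 1.09 in the RBFOX2 replicates and 0.70 in IgG. The RBFOX2 values fell inside the SLBP range, and the means of 1.26 ± 0.71 (SD, n = 4) and 1.19 ± 0.14 (SD, n = 2) had an exact permutation p of 0.8. SLBP replicate 4 contributed only 2 peaks to this gene.

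H3F3B differed from its partner gene in RBFOX2. Its mean log2 fold was 0.69, 1.10, −0.17 and 0.29 in SLBP replicates 1 to 4, −0.50 and −0.78 in the RBFOX2 replicates and 0.40 in IgG. Both RBFOX2 libraries were below input and below every SLBP library and IgG. The means were 0.48 ± 0.54 (SD, n = 4) for SLBP and −0.64 ± 0.20 (SD, n = 2) for RBFOX2, a difference of 1.11 with the smallest possible exact permutation p of 0.133. The difference was 0.70 when each list's median over all its peaks was subtracted. It turned to −0.23 when each library's median over shared tiles was subtracted, a scaling chosen after the lists were seen. Its direction thus depends on the scaling. Below input lay 14 of 16 and 11 of 12 RBFOX2 peaks of the gene.

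H1FX encodes H1.X, a further linker histone, and also lay below input in RBFOX2. Its mean log2 fold was 1.48, −0.01, −0.14 and 1.10 in SLBP replicates 1 to 4, −0.81 and −1.72 in the RBFOX2 replicates and 0.03 in IgG. Every RBFOX2 peak of the gene lay below input, 4 of 4 in replicate 1 and 9 of 9 in replicate 2. The means were 0.61 ± 0.81 (SD, n = 4) for SLBP and −1.27 ± 0.65 (SD, n = 2) for RBFOX2, and the difference of 1.87 again had the smallest possible exact permutation p of 0.133. With each list's median over all its peaks subtracted the difference was 1.46, and with each library's median over shared tiles subtracted it was 0.53. The SLBP means of this gene rest on 2 to 4 peaks a library.

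**Figure D1:**
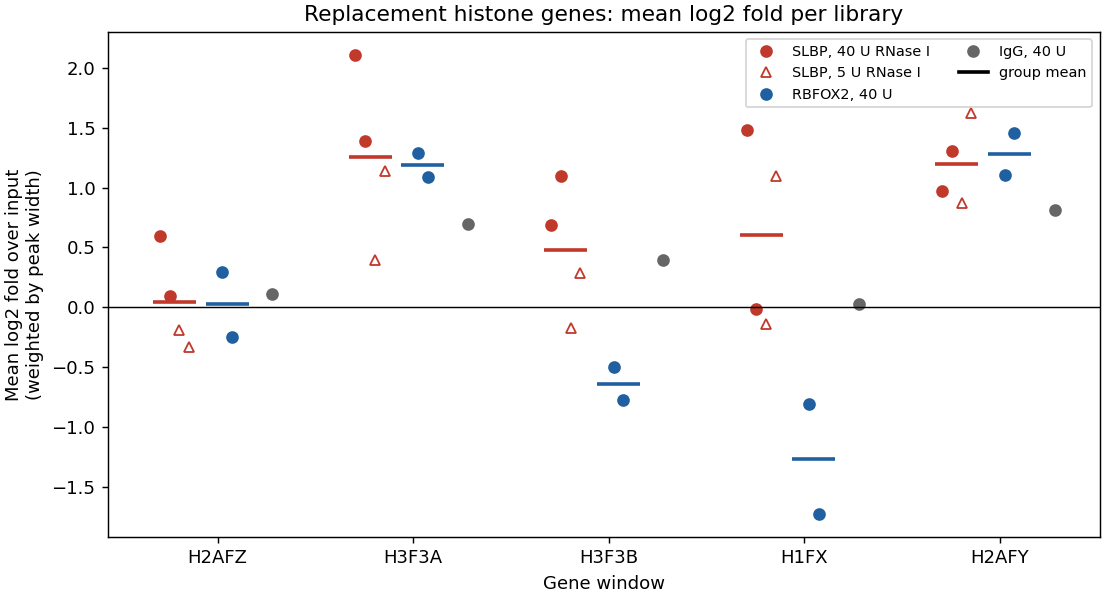
Mean log2 fold over input (y axis, weighted by peak width) in the 5 gene windows (x axis), with 1 point per library, filled for 40 U and open for 5 U of RNase I, and a line at the mean of each group of more than 1 library. As deposited, RBFOX2 lies below every other library in H3F3B and in H1FX, and the SLBP and RBFOX2 ranges overlap in the other 3 genes. In H3F3B, subtracting list medians keeps the sign of the difference and subtracting shared-tile medians turns it.

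Ordered by mean, the SLBP folds ran from H3F3A through H2AFY, H1FX and H3F3B to H2AFZ, and the ranges of the 4 libraries overlapped between each gene and the next. The RBFOX2 order was H2AFY, H3F3A, H2AFZ, H3F3B and H1FX, from 1.28 to −1.27. There, H2AFY and H3F3A overlapped, and the other neighbouring genes did not, although H3F3B at −0.78 and H1FX at −0.81 nearly met.

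H3F3A held a pair of RBFOX2 peaks that lay in both replicates and had no SLBP or IgG peak over it. The pair began 3983 nt into the window. Replicate 1 had log2 folds of 2.27 and 2.50 there with −log10 p 3.50 and 3.40, and replicate 2 had 2.91 and 2.99 with 3.64 and 3.99. They were the highest RBFOX2 folds of the gene in each replicate, and none of the 4 peaks passed either limit. At the 5' end of the same gene RBFOX2 lay below input, with mean log2 folds of −1.89 and −1.50 in the first 100 nt in replicates 1 and 2. IgG had −0.32 there, also below input and nearer to it. The lowest RBFOX2 fold of the gene was −2.24 in replicate 2, at a peak of 3 nt. Peaks of all antibodies were frequent in the first 20% of the window, which held 11 of 19 SLBP, 12 of 28 RBFOX2 and 6 of 10 IgG peaks.

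**Figure D2:**
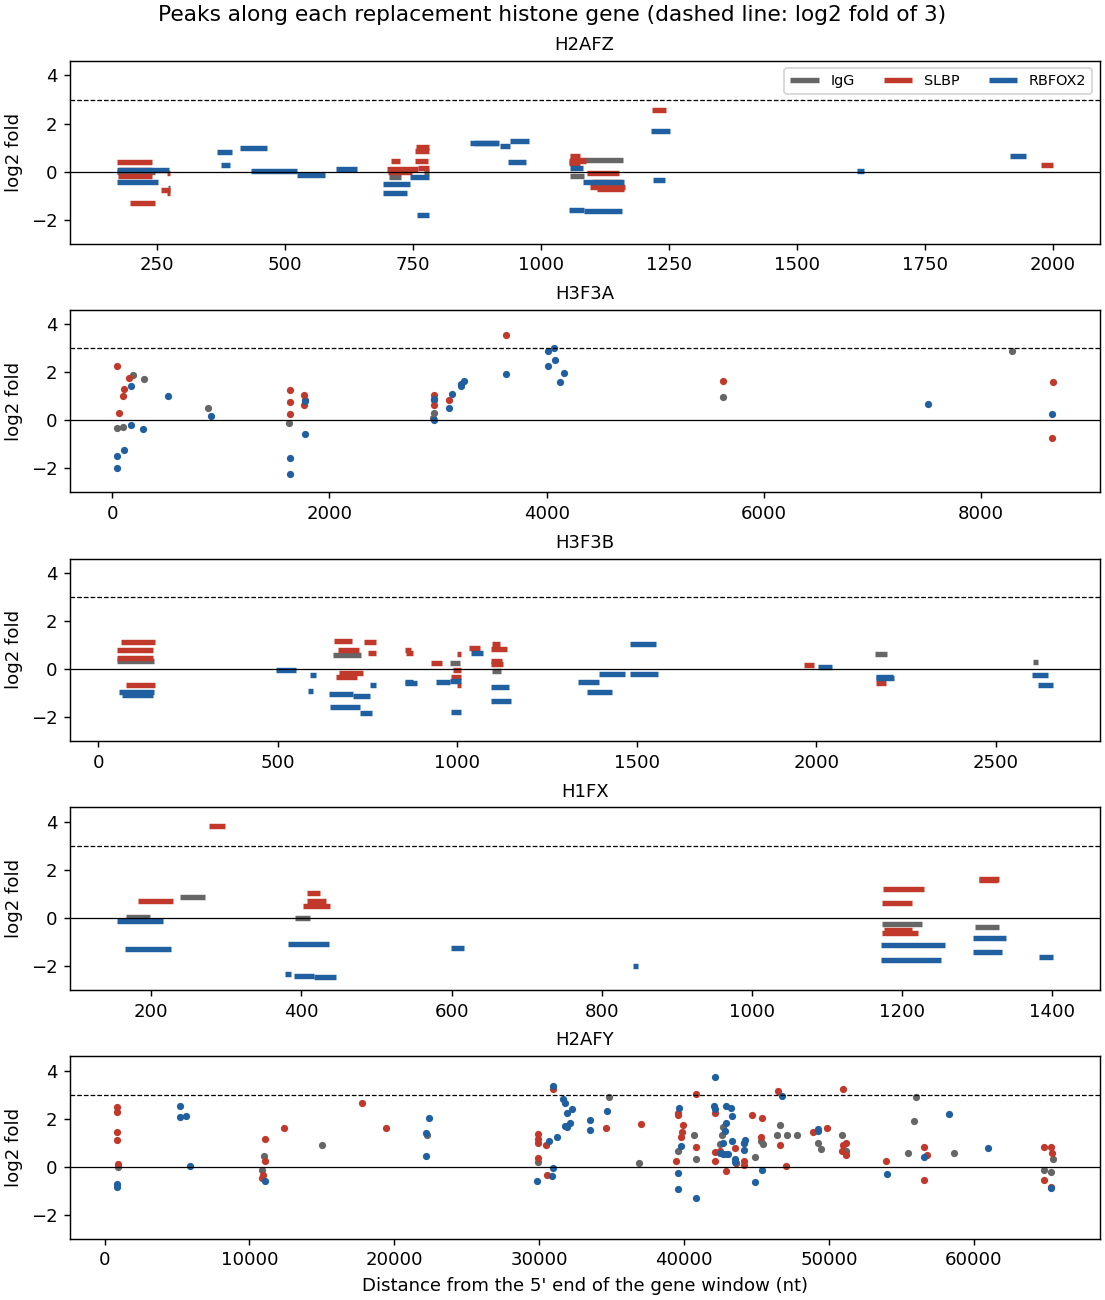
log2 fold over input (y axis) of each peak against its distance from the 5' end of the gene window in nt (x axis), as bars over the peak's width, or as points at its centre for H3F3A and H2AFY, coloured by antibody. RBFOX2 peaks lie below 0 throughout H1FX and at 25 of 28 peaks of H3F3B, and pass the dashed line at a log2 fold of 3 at 2 peaks of H2AFY.

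Single places of H2AFY are given next, chosen after their values were seen. From 42084 nt in, at chr5:134693529-134693616, RBFOX2 had a log2 fold of 2.41 with −log10 p 5.60 in replicate 1. Replicate 2 had a pair of touching peaks there, of 3.72 with −log10 p 3.84 and 2.51 with 2.44, so none of the RBFOX2 peaks passed both limits. SLBP replicates 1 to 3 had 0.24, 0.63 and 2.24 at that place, the last close to RBFOX2, and SLBP replicate 4 and IgG had no peak. A second place, from 42847 nt in, passed on p in both replicates and on fold in neither, with log2 folds of 1.84 and 2.52 and −log10 p of 6.54 and 8.01. Near the 5' end, in the 100 nt centred 850 nt in, SLBP was the higher. It had 1.42, 2.50, 1.10 and 2.26 there, RBFOX2 had −0.72 and −0.83, and IgG had no peak.

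Some peaks of these genes began or ended on the same nt in lists of different antibodies. An edge shared to the nt by at least 3 of the 7 lists occurred 4 times in H2AFZ, 3 times in H3F3A, 2 times in H3F3B and once in H1FX. In H3F3A, 5 lists had a peak starting at position 226253357, in SLBP replicates 1 to 3, RBFOX2 replicate 1 and IgG, with log2 folds from 0.09 to 1.04. In H3F3B, all 4 SLBP lists and RBFOX2 replicate 1 had a peak starting at 73774891. H2AFY had no such edge.

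In 9 places all 7 lists had a peak over the same nt: 4 in H2AFZ, 4 in H3F3B and 1 in H1FX. The widest, 76 nt near the 5' end of H3F3B at chr17:73775748-73775823, had log2 folds of 0.80, 1.13, −0.66 and 0.46 in SLBP replicates 1 to 4. RBFOX2 had −0.95 and −1.08 there, and IgG had 0.34. The single H1FX place, chr3:129033988-129034024, had 0.63, −0.49, −0.61 and 1.22 in SLBP, −1.12 and −1.74 in RBFOX2 and −0.25 in IgG. At both places the 2 RBFOX2 libraries were the lowest of the 7. That order did not hold at the H2AFZ places starting at 100870449, 100870524 and 100871361 or the H3F3B place starting at 73774892. At 100871361 SLBP replicate 4 was the lowest at −1.29, beside 0.07 and −0.43 in RBFOX2. It held at the remaining places.

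The share of peaks below input gives the same values without a mean. It was 9.76%, 13.9%, 32.4% and 25% over the 5 genes in SLBP replicates 1 to 4, 43.4% and 46.8% in RBFOX2 and 25.8% in IgG. Over all peaks of the lists it was 7.02%, 9.45%, 23.4%, 17.0%, 32.6%, 31.0% and 10.7% in the same order. Both RBFOX2 shares were above the 4 SLBP shares and IgG in the 5 genes, and likewise over all peaks. That order did not hold for the share of peaks below each list's own median. This share was 82.9%, 66.7%, 59.5% and 62.5% in SLBP, 59.2% and 63.6% in RBFOX2 and 75.8% in IgG. Over all peaks of a list it is fixed by the definition of a median. For the shares below input, the exact binomial 95% intervals of RBFOX2 ran from 32.1% to 55.3% and from 35.3% to 58.5%. Those of SLBP replicates 3 (18.0% to 49.8%) and 4 (9.77% to 46.7%) overlapped both. Those of SLBP replicates 1 (2.72% to 23.1%) and 2 (4.67% to 29.5%) lay below both. Peaks of 1 gene are not independent, so the intervals cover counting error only and do not compare the antibodies.

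Places can be compared between antibodies as tiles of 100 nt, each with the mean log2 fold over the part of it that peaks cover. Of 2194 tiles covered in all 4 SLBP and both RBFOX2 libraries, 14 lay in the replacement genes: 5 in H2AFZ, 6 in H3F3B, 2 in H1FX and 1 in H2AFY. No tile of H3F3A was covered in all 6. Some neighbouring tiles share peaks, so they are not independent; the SLBP values of both H1FX tiles come from the same peaks.

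SLBP was higher than RBFOX2 in 10 of the 14 tiles at an adjusted p under 0.05 (limma across all tiles, Benjamini-Hochberg) and lower in none. Over all 2194 tiles SLBP was higher in 59% and lower in 1.41%, and the median difference was 1.44 in the 14 tiles and 1.35 over all. Every SLBP library lay above both RBFOX2 libraries in 10 of the 14 tiles, beside 66.5% of all tiles, and below both in 0, beside 2.37%. By median the 14 tiles thus differed about as much as all tiles did, and the cause of that shift was not tested. When the median of each library over the tiles was subtracted, 0 of the 14 tiles were higher and 0 lower, beside 5.1% and 5.61% of all tiles. Of the 14 tiles, 6 were higher without SLBP replicate 1 and 5 without SLBP replicate 4. Without RBFOX2 replicate 2, 1 of the 14 was higher and 189 of all tiles were, with the lone RBFOX2 library assumed to vary like the other groups.

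The largest differences among the 14 tiles were in H2AFY and H3F3B. The H2AFY tile centred 850 nt in had a difference of 2.60 (SE 0.50, limma adjusted p = 0.00156), which became 1.25 with an adjusted p of 0.118 after the library medians were subtracted. The H3F3B tile at 750 nt had 1.91 (limma adjusted p = 0.00456), and 0.57 with an adjusted p of 0.382 after subtraction. The lowest were both H2AFZ tiles near the 5' end, at −0.07 and −0.10 with limma adjusted p of 0.906 and 0.852. The H2AFZ tiles at 750 and 1050 nt were higher in SLBP, by 1.28 and 1.25 (limma adjusted p = 0.0274 and 0.0425). After subtraction those differences were −0.07 and −0.09.

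**Figure D3:**
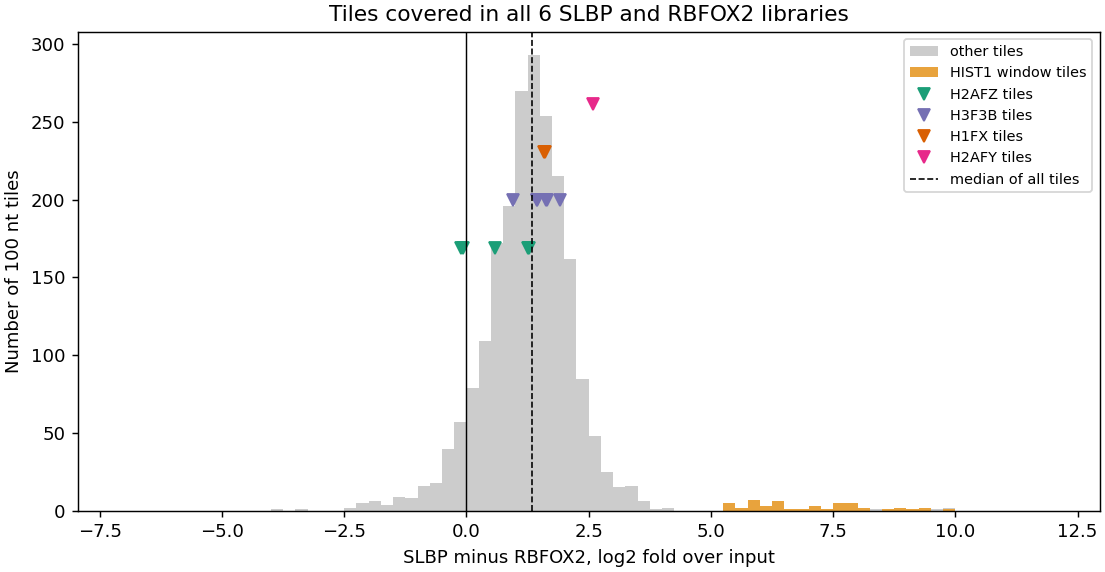
SLBP minus RBFOX2 difference in log2 fold over input (x axis) for the 2194 tiles of 100 nt covered in all 6 libraries, as a count of tiles per bin of difference (y axis), with a dashed line at the median of 1.35. Triangles mark the 14 replacement gene tiles, at heights that separate the genes and carry no value. They lie within the main body of tiles, from −0.10 to 2.60, and the 48 HIST1 tiles lie above them.

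H3F3A could be compared only on a wider set, chosen after the lists were seen, of 6580 tiles covered in both RBFOX2 and at least 2 SLBP libraries. Of its 28 replacement gene tiles SLBP was higher in 14 and lower in 1, beside 41.2% and 1.85% of all tiles (limma, adjusted p under 0.05). After the library medians were subtracted it was higher in 0 and lower in 2, both in H2AFY, beside 2.23% and 4.59% of all tiles. The 14 higher tiles as deposited were 5 of 5 in H1FX, 5 of 8 in H3F3B, 2 of 5 in H3F3A, 2 of 5 in H2AFY and 0 of 5 in H2AFZ. The median difference was 1.37 in the 28 tiles and 1.34 over all 6580.

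The H2AFY tile at 42150 nt had RBFOX2 values of 2.41 and 3.32 and SLBP values of 0.24, 0.63 and 2.24 in replicates 1 to 3. Both RBFOX2 values were above the 3 SLBP values, the highest of which came close. The difference was −1.83 (SE 0.65, limma adjusted p = 0.0373), and −3.18 with an adjusted p of 0.0149 after subtraction. In H3F3A the tile at 50 nt had SLBP values of 2.01, 1.31 and 0.30 in replicates 1 to 3, above the negative RBFOX2 values given earlier. Its difference of 2.90 (limma adjusted p = 0.00572) became 1.55 with an adjusted p of 0.115 after subtraction.

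The RNase I amount was compared within SLBP. Both 5 U libraries carry the numbers 3 and 4, so the amount and anything else that set those libraries apart cannot be told apart. The 5 genes differed by 0.60 in H2AFZ, 0.98 in H3F3A, 0.83 in H3F3B, 0.25 in H1FX and −0.11 in H2AFY in mean log2 fold, given as 40 U minus 5 U. With 2 libraries each the smallest exact permutation p is 0.333, which H2AFZ, H3F3A and H3F3B reached. In limma, 0 of the 14 tiles differed at an adjusted p under 0.05, beside 0.0456% of all tiles higher at 40 U and 0% lower, although 244 of the 2194 tiles had an unadjusted p under 0.05. Replicates at 1 amount were not alike either: H1FX had 1.48 and −0.01 at 40 U and −0.14 and 1.10 at 5 U, and H3F3A had 2.11 and 1.39 at 40 U and 0.39 and 1.14 at 5 U.

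Set beside replication-dependent histone genes, the SLBP values of the replacement genes were of another order. In the HIST1 window, 2 Mb of chromosome 6 that holds the largest cluster of these genes, a mean of 92.8% of the SLBP peaks of a library were enriched (range 91.2% to 95.3%, n = 4), 771 of 832 in all. In HIST2 on chromosome 1 it was 76.7%, and all 51 SLBP peaks of H2AFX were enriched. H2AFX encodes H2A.X, a variant whose mRNA can end in the stem-loop or in a poly(A) tail. The median log2 fold per SLBP library ran from 5.23 to 7.39 in HIST1, from 4.76 to 6.66 in H2AFX and from 0.24 to 1.04 in the replacement genes. The lowest library of either contrast was thus above the highest of the replacement genes.

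The limma tiles show the same distance place by place. All 48 tiles of HIST1 covered in the 6 libraries were higher in SLBP, both as deposited and after the library medians were subtracted, where 0 of the 14 replacement gene tiles were. RBFOX2 had 5 enriched peaks of 301 in HIST1, 0 of 79 in HIST2 and 0 of 11 in H2AFX. Its medians in H2AFX were −1.03 and −0.76, within the range of its means in H3F3B and H1FX.

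**Figure D4:**
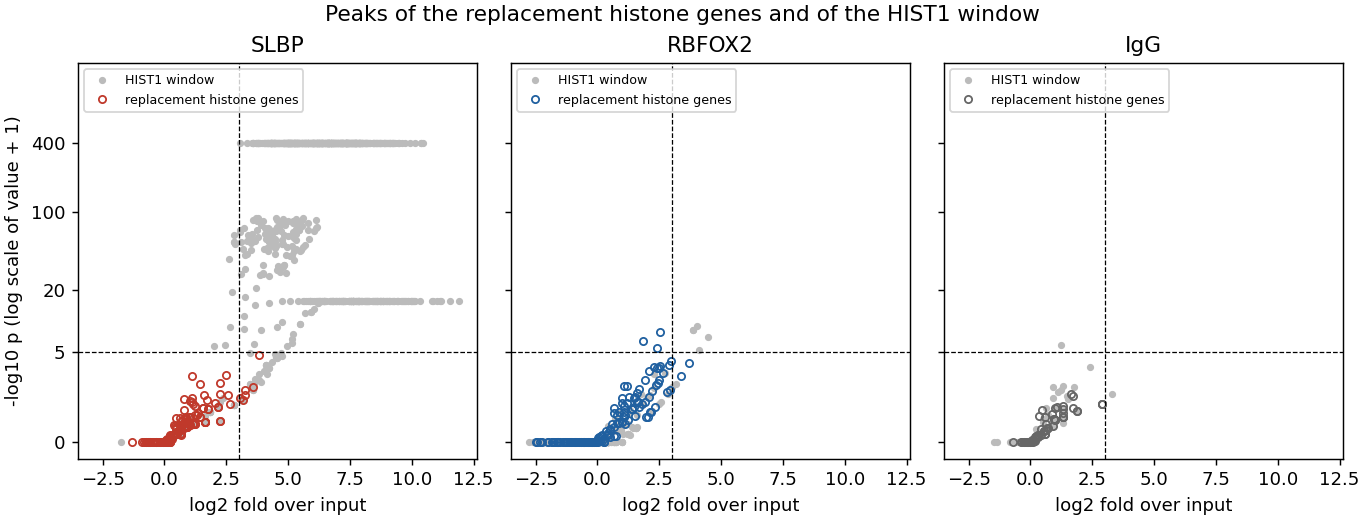
−log10 p (y axis, on a log scale of the value plus 1) against log2 fold over input (x axis) of each peak in the HIST1 window (grey) and in the 5 replacement histone genes (open circles) for SLBP, RBFOX2 and IgG, with dashed lines at the limits of 5 and 3. SLBP peaks of the replacement genes stay outside the upper right corner that holds 771 of 832 HIST1 peaks, and the RBFOX2 and IgG peaks of the replacement genes stay outside it too.

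A list of 10 other histone variant and histone chaperone genes was read in the same way. SLBP had 0 enriched peaks of 98 in them, beside 1.52% of all SLBP peaks, and IgG 0 of 36, beside 0.18%. Most of the enriched SLBP peaks behind that 1.52% lay in HIST1, HIST2 and H2AFX. RBFOX2 had 6 of 126, or 4.76%, beside 7.79% of all RBFOX2 peaks. The 6 lay in 3 genes: 1 in HIRA and 2 in ATRX, which are parts of H3.3 deposition complexes, and 3 in NASP, a histone chaperone. Their highest RBFOX2 log2 folds were 4.07, 3.66 and 4.42. The variant genes H2AFV and H2AFY2 had no enriched peak, and CENPA, the centromeric H3 variant, had no peak in any list.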

How the data were processed

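Each deposited list holds peaks called per library, with a strand, the authors' −log10 p and the authors' log2 fold of immunoprecipitation over its paired input; the columns have no header, and the units were read from the values. Build hg19 and the tools cutadapt, STAR, GATK, Picard and SAMtools are named per the submitters' processing notes, with no peak caller among them. A set of 10 further RBFOX2 samples, at various RNase I amounts, was not used here. Antibodies and replicates came from the sample titles.

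Members, gene lists, tests and limits were chosen with earlier results of these data known. All 5 genes are named, and 1 further gene of the set is not reported here; single peaks are named where enriched, or as the highest or lowest of a gene and library, and others named, such as the H3F3A pair, were chosen after their values were seen. Windows came from general knowledge, and names from RefSeq. Gene means were weighted by peak width and compared by two-sided exact permutation. Tiles were fitted in limma 3.58.1 (R 4.3.3), and other steps ran in Python 3.11.15. The fit had 3 conditions, SLBP at 40 U, SLBP at 5 U and RBFOX2, and no filter beyond cover in all 6 libraries. The wider set of 6580 tiles was fitted with SLBP as 1 condition. Library medians subtracted there were those of the 2194 tiles. On simulated tiles the fit recovered 54% of differences of 2 and 97% of differences of 4 in SLBP against RBFOX2 (200 changed of 2194). The simulated tiles were independent and had no shift common to most tiles, unlike the real ones, so these rates need not hold for them. Replicate numbers are shared by SLBP and RBFOX2. Whether they pair the libraries is unknown, and the main fit did not pair them.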

Additional observations from a re-analysis of the deposited data

Results flagged for a closer look

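Among 30 groups of 4 SLBP libraries examined for a library far from the others, 2 stood out. Chance picks about 1 in 20 where values are continuous and groups independent. These groups include tied counts and shares, and several measures of the same peaks, so that rate is only a guide. The share of H3F3A peaks below input was 14.3% in SLBP replicate 1, 1 peak of 7, and 0 in the other 3, so 1 peak alone set this flag. H2AFY had 8 peaks in SLBP replicate 4 and 17 or 18 in the other 3, and replicate 4 also has the shortest list. A tile of H2AFY at 42150 nt differed between SLBP and RBFOX2 against the direction of most tiles, by −1.83 (limma across 6580 tiles), and SLBP replicate 4 did not cover it.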

How the results depend on the processing

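Depth is unknown, and calls of enrichment follow the limits. With −log10 p at least 3, SLBP replicate 1 and RBFOX2 replicate 2 had 1 enriched peak each; with log2 fold at least 1, the RBFOX2 replicates had 2 and 1. On fold alone SLBP replicates 1 to 4 had 3, 1, 1 and 1, and the RBFOX2 replicates 1 each. SLBP minus RBFOX2 turned sign in H2AFZ (−0.39) and H3F3A (−0.35) with each list's median subtracted, and in H2AFZ (−1.33), H3F3A (−1.28) and H3F3B (−0.23) with the shared-tile median subtracted, a setting added after the data were seen. Leaving out 1 library gave −0.25 to 0.29 in H2AFZ, −0.22 to 0.35 in H3F3A, −0.26 to 0.087 in H2AFY, 0.91 to 1.33 in H3F3B and 1.42 to 2.33 in H1FX. Shares of peaks below the list's own median, in place of below input, were 82.9%, 66.7%, 59.5% and 62.5% in SLBP, 59.2% and 63.6% in RBFOX2 and 75.8% in IgG. Tiles higher and lower in SLBP numbered 1295 and 31 as deposited, 112 and 123 with library medians subtracted (replacement genes 0 higher), and 189 and 4 of 245 tiles with at least 50 nt covered (2 of 3 higher). On the wider tile set they numbered 2709 and 122 (replacement genes 1 lower), and 147 and 302 with medians subtracted (0 higher, 2 lower). The replicate block gave 1273 and 20, with 9 replacement gene tiles higher. Replicates 3 and 4 exist only in SLBP, so that contrast rests on SLBP replicates 1 and 2 against RBFOX2. Deviations from the group mean correlated at −0.06 and −0.05 between same-numbered SLBP and RBFOX2 libraries. With 2 RBFOX2 libraries these deviations mirror each other, so this cannot settle whether the numbers pair libraries. Leaving out 1 library gave 189 to 1292 higher and 10 to 32 lower, with 1 to 9 higher in the replacement genes (6 without SLBP replicate 1, 5 without SLBP replicate 4, 1 without RBFOX2 replicate 2). For 40 U against 5 U it gave 1 to 5 higher. Shares of enriched SLBP peaks were 86.2% in HIST1 with stricter limits and 86.2% with peaks merged, 59.9% and 70.0% in HIST2, and 97.5% in H2AFX with stricter limits. The cause of these shifts was not tested.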
